A study of Homo sapiens with 4 samples.

Results

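The giant ubiquitin ligase genes considered here are HUWE1, UBR4, HERC1, HERC2, MYCBP2, BIRC6 and TRIP12, 7 of the 20037 protein-coding genes of the RefSeq table used (GRCh38.p14). Binding of IGF2BP2 to their RNA was measured by iRIP-seq, an RNA immunoprecipitation with UV crosslinking in which IGF2BP2 was pulled down with an antibody and the RNA recovered with it was sequenced. The cells were Jurkat, a human T-ALL line, and no deletion or treatment is given in the labels for any library. There were 2 IGF2BP2 iRIP libraries (anti-IGF2BP2 antibody) and 2 input libraries (no antibody named), and all values below come from the peaks of the iRIP libraries, called replicates 1 and 2, while the inputs were not analysed here. The genes were chosen by symbol. Their peaks were the sense peaks, meaning peaks whose largest share lay in coding sequence, UTR, noncoding exon or intron on the gene's own strand, with the gene's Ensembl identifier in the list. By this rule 236 of 74237 sense peaks in replicate 1 and 275 of 77288 in replicate 2 belonged to the 7 genes, a mean of 255.5 ± 27.6 (SD, n = 2). All of these peaks lay inside the RefSeq interval of the gene and on its strand, which the matching of identifiers by position and strand largely required.

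Ubiquitin is attached to proteins by a relay of an activating enzyme, a conjugating enzyme and a ligase, and the ligase chooses the protein that is marked. HECT ligases such as HUWE1, HERC1, HERC2 and TRIP12 take the ubiquitin over on a cysteine of their own, whereas most RING-type ligases bring the conjugating enzyme and the target together. The 7 genes encode very large proteins, so that their mRNAs carry unusually long coding sequences split over many exons. IGF2BP2 is an RNA-binding protein with KH domains and a reader of m6A, and it is known for binding and stabilising mRNAs.

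Each listed peak has a position, its height in tags, the regions it covers and a gene, but read numbers are not given. Sequencing depth is therefore unknown, and no adjustment of the heights for depth was possible. Replicate 1 lists peaks from 4 tags upwards and replicate 2 from 5 tags upwards, in steps of 50 nt. Of 13 T-cell markers 11 had a sense peak in both replicates, against 1 of 4 B-cell, 1 of 4 myeloid and 0 of 3 erythroid markers. The B-cell gene was PAX5 and the myeloid gene CSF1R, and the missing T-cell markers were CD2 in replicate 2 and CD28 in replicate 1. Nothing in the labels says that the libraries came from separate cultures. A peak count does not take the level of an RNA into account, so a more abundant RNA and a more strongly bound RNA cannot be told apart.

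All 7 genes had a sense peak in both replicates, as did 43.5% of all protein-coding genes and 83.6% of the 2316 protein-coding genes at least as long as UBR4, the shortest of the 7. UBR4 and HUWE1 stood far above the others. UBR4 had 105 sense peaks in replicate 1 and 109 in replicate 2 (107.0 ± 2.83, SD, n = 2), and HUWE1 had 67 and 88 (77.5 ± 14.8). These 2 genes held 72.9% of the peaks of the 7 in replicate 1 and 71.6% in replicate 2. HERC2 followed with 14 and 31 peaks (22.5 ± 12), MYCBP2 with 18 and 16 (17.0 ± 1.41) and HERC1 with 15 and 18 (16.5 ± 2.12). The replicates of HERC2, MYCBP2 and HERC1 overlapped in number, so these 3 genes have no order. TRIP12 had 11 and 10 peaks (10.5 ± 0.707) and BIRC6 had 6 and 3 (4.50 ± 2.12), below the lowest value of HERC2, MYCBP2 and HERC1 in each case. With 2 libraries no test between genes was run.

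**Figure D1:**
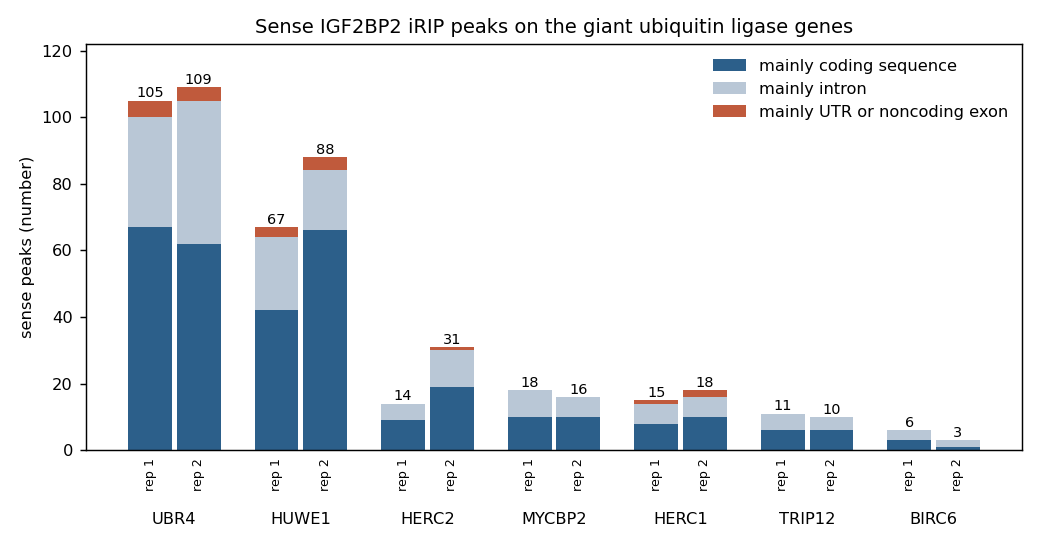
Number of sense IGF2BP2 iRIP peaks (vertical axis) on each giant ubiquitin ligase gene in replicates 1 and 2, with each bar divided by the main region of the peaks and its total printed on top. UBR4 (105 and 109) and HUWE1 (67 and 88) carry most peaks, and coding sequence is the largest class in every bar but those of BIRC6.

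The order of the genes was not that of their lengths. UBR4 is the shortest of the 7 genes (135.8 kb) and had 0.788 ± 0.0208 sense peaks per kb of gene (SD, n = 2), and HUWE1 (154.6 kb) had 0.501 ± 0.0960. HERC2 (211.1 kb) had 0.107 ± 0.0569 per kb, HERC1 (225.3 kb) 0.0732 ± 0.00941, TRIP12 (159.4 kb) 0.0659 ± 0.00444 and MYCBP2 (282.4 kb) 0.0602 ± 0.00501. BIRC6 (261.9 kb) had 0.0172 ± 0.00810. The median of the 7 genes was 0.0732 per kb, beside 0.0188 for all 2316 genes at least as long as UBR4 and 0.0224 for the 1936 of these with a sense peak in both replicates. Among the 2316 genes, UBR4 ranked 4 and HUWE1 ranked 11 in sense peaks per kb, HERC2 ranked 125, HERC1 195, TRIP12 229, MYCBP2 274 and BIRC6 1279. Thus 6 genes lay in the upper part of this set and BIRC6 lay near its middle, where 44.8% of these genes had fewer peaks per kb. The set has no upper limit of length and UBR4 is its shortest gene, so it is not matched for length. Among all 20037 protein-coding genes, UBR4 ranked 547, HUWE1 978, HERC2 3700, HERC1 4804, TRIP12 5182, MYCBP2 5488 and BIRC6 10623 in sense peaks per kb. Genes to which no identifier could be assigned count as having no peak in these ranks.

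**Figure D2:**
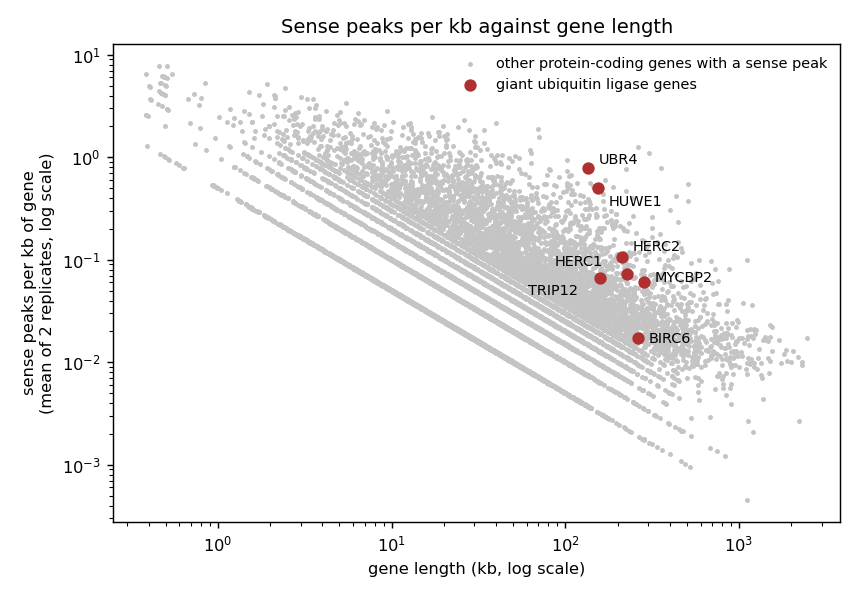
Sense peaks per kb of gene (mean of the 2 replicates, log scale) against gene length (kb, log scale) for the protein-coding genes with an assigned identifier and a sense peak (grey) and for the 7 giant ubiquitin ligase genes (red). UBR4 (0.788 per kb) and HUWE1 (0.501 per kb) lie at the upper edge of genes of their length, and BIRC6 (0.0172 per kb) lies inside the bulk.

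The peaks of the 7 genes lay mostly in coding sequence. In replicate 1, 145 of the 236 sense peaks were mainly coding (61.4%, 95% Wilson interval 55.1% to 67.4%), and in replicate 2, 174 of 275 were (63.3%, 57.4% to 68.8%). Over all sense peaks of the lists 19.9% and 25.6% were mainly coding, and on the other assigned protein-coding genes at least as long as UBR4 it was 11.4% and 14.9%. These intervals hold counting error alone, as PCR copies of a molecule are not independent. The coding share of the 7 genes together did not differ detectably between the libraries (difference, replicate 2 minus replicate 1, 1.83 percentage points, p = 0.714 by a two-sided Fisher's exact test). This test sets 1 library against the other and compares no conditions. Like those of single genes below, it treats peaks as independent. Yet 117 of the peaks in each replicate had a counterpart in the other, and neighbouring peaks share a transcript. At 5 tags or more, the lowest height both lists share, this difference was -6.59 points (exact test, p = 0.196).

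Between genes the coding share moved less than the number of peaks. HUWE1 had 42 of 67 peaks mainly in coding sequence in replicate 1 (62.7%) and 66 of 88 in replicate 2 (75.0%), a mean of 68.8% ± 8.71 (SD, n = 2). HERC2 had 62.8% ± 2.12, UBR4 60.3% ± 4.90, MYCBP2 59.0% ± 4.91, TRIP12 57.3% ± 3.86 and HERC1 54.4% ± 1.57. BIRC6, with 3 coding peaks of 6 and 1 of 3, had 41.7% ± 11.8, and its Wilson intervals ran from 18.8% to 81.2% and from 6.15% to 79.2%. The genes have no order in coding share, since HUWE1 was below HERC2 (64.3%) and UBR4 (63.8%) in replicate 1. At 5 tags or more its mean of 69.8% was below those of HERC2 (80.6%), TRIP12 (80.0%) and MYCBP2 (74.1%). Those 3 means rest on few peaks of replicate 1, namely 4, 3 and 7, with coding shares of 100%, 100% and 85.7%. In replicate 2 their shares at this height were 61.3%, 60.0% and 62.5%, below the 75.0% of HUWE1. No gene differed detectably in coding share between the libraries. The smallest p was that of HUWE1 (two-sided Fisher's exact test, p = 0.114, 0.799 after Benjamini-Hochberg adjustment over the 7 genes, with a difference of 12.3 percentage points).

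Very few peaks lay in untranslated regions. Mainly coding peaks made up 94.2% of the 154 exonic peaks of the 7 genes in replicate 1 and 94.1% of the 185 in replicate 2, beside 64.6% and 67.9% of all exonic sense peaks. On the other assigned protein-coding genes at least as long as UBR4 these shares were 71.5% and 75.5%, and those of the 3′ UTR 11.1% and 8.54%. Peaks annotated mainly as 3′ UTR numbered 2 in each replicate, 1 on HUWE1 and 1 on UBR4. This is 1.3% and 1.08% of the exonic peaks against 11.9% and 10.6% over all genes. The one on UBR4 was centred 96.59 kb from the start of the gene, and coding peaks were listed up to 133.44 kb. It therefore did not lie in the 3′ UTR at the end of the gene. The 5′ UTR held 2 peaks in replicate 1 and 5 in replicate 2, all on HUWE1 (1 and 3) and HERC1 (1 and 2). MYCBP2, BIRC6 and TRIP12 had no peak mainly in a UTR or noncoding exon in either replicate. The lengths of the coding sequences and UTRs were not used here, so these shares are not relative to the length of each region.

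Most of the remaining peaks were mainly intronic, and on UBR4 and HUWE1 most of these reached into coding sequence. In replicate 1, 50 of the 82 intron peaks of the 7 genes also held coding sequence (61.0%), and in replicate 2, 62 of 90 did (68.9%), beside 8.28% and 12.2% of all intron peaks. UBR4 gave 25 of 33 and 37 of 43, and HUWE1 17 of 22 and 14 of 18. On the other 5 genes most did not, with 8 of 27 (29.6%) and 11 of 29 (37.9%). Only 30 peaks (12.7% of sense peaks) in replicate 1 and 27 (9.82%) in replicate 2 lay wholly in introns. With every peak counted that held any coding sequence, the share was 84.7% and 88.0%, beside 27.5% and 35.5% over all sense peaks. In the 5 genes other than HUWE1 and UBR4, peaks wholly in introns were more frequent, 19 of 64 in replicate 1 (29.7%) and 18 of 78 in replicate 2 (23.1%), a split chosen after the values were seen and not tested.

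A larger share of the peaks on UBR4 and HUWE1 than on the other 5 genes had a counterpart in the other library, meaning a same-strand peak that shared at least 1 bp. On UBR4, 63 of the 105 sense peaks of replicate 1 (60.0%) and 63 of the 109 of replicate 2 (57.8%) had such a counterpart. For HUWE1 the numbers were 42 of 67 (62.7%) and 42 of 88 (47.7%). Over all sense peaks these shares were 16.6% in replicate 1 and 15.8% in replicate 2. HERC2 had 4 overlapped peaks in each replicate (28.6% and 12.9%), MYCBP2 4 (22.2% and 25.0%), HERC1 2 (13.3% and 11.1%) and TRIP12 2 (18.2% and 20%). BIRC6 had 0 of 6 and 0 of 3, too few to set a useful limit. The Wilson intervals of HERC2, MYCBP2, HERC1, TRIP12 and BIRC6 all held the share of all sense peaks, and those of UBR4 and HUWE1 lay above it. These intervals treat peaks as independent, and the share of all sense peaks is not matched for region. Of all sense peaks 62.8% in replicate 1 and 53.9% in replicate 2 lay wholly in introns. On UBR4 and HUWE1 together 6.4% and 4.57% did, and peaks wholly in introns were seldom overlapped, as given below.

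Counterparts were rare for peaks wholly in introns. Among coding peaks of the 7 genes, 76 of 145 (52.4%) had one in replicate 1 and 80 of 174 (46.0%) in replicate 2, beside 45.8% and 35.0% of all coding peaks. Among mainly intronic peaks, 35 of 82 (42.7%) and 30 of 90 (33.3%) had one, beside 7.11% and 7.12% of all intron peaks. Of the intron peaks that also held coding sequence, 32 of 50 (64.0%) and 28 of 62 (45.2%) were overlapped, beside 49.6% and 32.6% over all genes. Of the peaks wholly in introns, 1 of 30 (3.33%) and 1 of 27 (3.70%) were overlapped, close to the 2.91% and 3.22% of all such peaks. The single overlapped pair wholly in an intron was on UBR4. Of the peaks that held no coding sequence but some UTR or noncoding exon, 4 of 6 had a counterpart in each replicate, all on HUWE1 and HERC1. UBR4 and HUWE1 carried these pooled shares. On the other 5 genes 27.8% and 21.7% of the coding peaks had a counterpart, below the shares over all genes, and so did 1 of 8 (12.5%) and 1 of 11 (9.09%) of the intron peaks with coding sequence.

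High peaks were found on the same 2 genes. UBR4 and HUWE1, 2 of the 7 genes, had a sense peak of 10 tags or more in each replicate, beside 3.75% of all protein-coding genes and 3.58% of those at least as long as UBR4. Both also had a coding peak of this height in each replicate, beside 2.64% of all protein-coding genes. UBR4 had 12 such peaks in replicate 1 (11.4%) and 38 in replicate 2 (34.9%), and HUWE1 had 8 (11.9%) and 32 (36.4%). Over all sense peaks the share was 2.73% and 8.75%. The other 5 genes had 0 of 64 in replicate 1, which allows a share of up to 4.69%, and 7 of 78 (8.97%) in replicate 2, namely 3 on HERC2, 3 on MYCBP2 and 1 on TRIP12. HERC1 and BIRC6 had none in either replicate. The median height was 6 tags for UBR4 and 5 for HUWE1 in replicate 1 and 8 tags for both in replicate 2, and it was 4 or 5 tags in replicate 1 and 5 or 6 in replicate 2 for the other 5 genes.

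HUWE1, a HECT ligase known for marking MCL1, MYC and p53, is listed as ENSG00000086758.16 on the minus strand of chromosome X, within chrX:53532096-53686719 (GRCh38). Its peaks were not spread evenly. With the gene cut into 4 parts of equal length, counted from its start, these held 5, 8, 21 and 33 peaks in replicate 1 and 6, 14, 25 and 43 in replicate 2, so that in both the number was higher in each later part. Exon positions were not used here, and the amount of exon in each part is therefore unknown. The highest peak of replicate 1 was at chrX:53552300-53552350 with 16 tags, mainly coding, and its overlapping peak in replicate 2 had 5 tags. The highest peak of replicate 2 was at chrX:53551250-53551300 with 25 tags, mainly coding (coding share 0.7), and had 14 tags in replicate 1, which made it the pair with the highest lower height. Next came chrX:53625750-53625800, mainly intron with a coding share of 0.3, with 11 and 20 tags. A mainly coding peak at chrX:53590400-53590450 had 10 and 23 tags.

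HUWE1 is also the host of miRNAs of the let-7 family, which are known as tumour suppressors and are cut from the intronic part of its primary transcript. They are shown because a peak found in both replicates lay close to one of them. The mature sequences come from RefSeq (GRCh38.p14), are written 5′ to 3′ with U, and have the seed (bases 2 to 8) in capitals.
hsa-let-7f-5p: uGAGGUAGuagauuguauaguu
hsa-miR-98-5p: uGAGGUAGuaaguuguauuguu
Both have the same seed. The hairpin of let-7f-2 is at chrX:53557192-53557274 and that of miR-98 at chrX:53556223-53556341, both on the strand of HUWE1. No sense peak overlapped either hairpin in either replicate. The nearest was at chrX:53557350-53557400, with 6 tags in replicate 1 and 9 tags in replicate 2, 62% of it intron and 38% coding sequence. It lay 76 nt from the hairpin of let-7f-2 and 1009 nt from that of miR-98, on the 5′ side of both. BIRC6 holds the hairpin of miR-558, whose nearest sense peak was 17204 nt away in replicate 1 and 10954 nt away in replicate 2, and no hairpin of the RefSeq miRNA table lay in the other 5 genes.

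UBR4, an N-recognin that binds destabilising residues at the N-terminus of proteins through its UBR box, is listed as ENSG00000127481.15 on the minus strand within chr1:19074510-19210266. Its peaks were densest in the middle of the gene, with 14, 42, 29 and 20 peaks in the 4 equal parts from the start in replicate 1 and 16, 36, 33 and 24 in replicate 2. The longest distance between the centres of neighbouring peaks, over both replicates, was 8.33 kb, from 0.19 to 8.52 kb from the start. On HUWE1 it was 12.8 kb, and on BIRC6 it was 115.2 kb. The highest peak of replicate 2, at chr1:19210050-19210100, had 29 tags and 13 tags in replicate 1. It was mainly coding (coding share 0.56) and its centre lay 0.19 kb from the start of the gene. The highest peak of replicate 1, at chr1:19176550-19176600, had 14 tags and 19 tags in replicate 2, with a coding share of 0.18 and the rest intron, and it was the pair with the highest lower height. A mainly intronic pair at chr1:19086100-19086150 had 12 and 16 tags. Another Ensembl identifier on the same strand inside the UBR4 interval had 2 and 1 peaks of its own, which are not counted here.

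**Figure D3:**
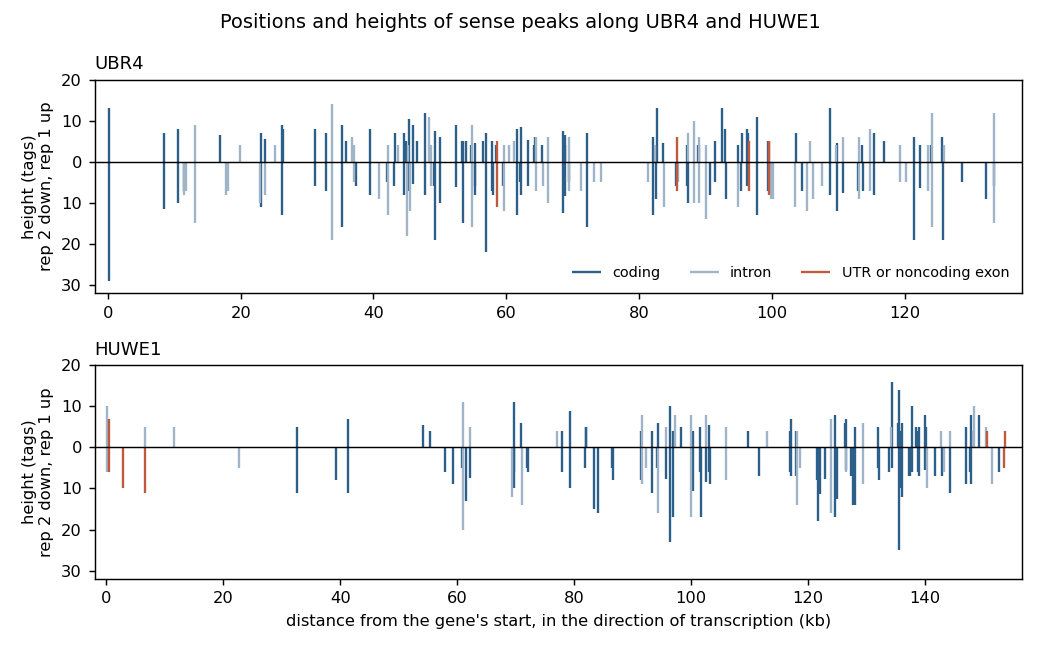
Sense peaks along UBR4 and HUWE1 by distance from the gene's start in the direction of transcription (horizontal axis, kb), with the height in tags drawn upwards for replicate 1 and downwards for replicate 2 and coloured by main region. The highest peak of UBR4 in replicate 2 (29 tags) stands at its start, and the peaks of HUWE1 gather towards its end, with 33 of 67 and 43 of 88 in its last part of 4.

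The heights of overlapping peaks were mostly larger in replicate 2. Over the 7 genes there were 118 overlapping pairs, of which 92 were higher in replicate 2, 17 were higher in replicate 1 and 9 were equal, with a median ratio of 1.5. The direction was partly fixed by the lowest heights, 4 tags in replicate 1 and 5 in replicate 2. A pair below 5 tags in replicate 1 had to be higher in replicate 2, and a pair at 5 tags there could not be lower. In 85 pairs both peaks had the same start and end, and in 75 both were mainly coding. Both peaks had at least 10 tags in 6 pairs on UBR4 and 4 on HUWE1. Within UBR4 the heights of the 63 pairs had a Pearson r of 0.40 and a Spearman rho of 0.32, and within HUWE1 the 43 pairs had 0.27 and 0.07. These describe peaks of 2 libraries that were cut at different lowest heights, and peaks of 1 gene share its RNA level, so no p is given.

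**Figure D4:**
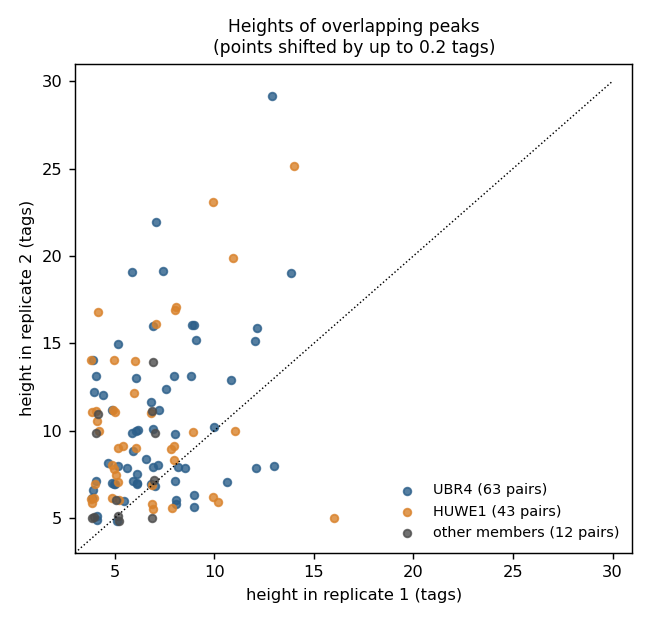
Height in tags of overlapping sense peaks in replicate 1 (horizontal axis) and replicate 2 (vertical axis) for UBR4 (63 pairs), HUWE1 (43) and the other genes (12), with the line of equal height dotted. Most points (92 of 118) lie above the line, which is partly fixed by the lowest heights of 4 tags in replicate 1 and 5 in replicate 2.

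HERC1 and HERC2 both combine a HECT domain with RCC1-like repeats, and HERC2 is known for its part in the response to DNA double-strand breaks. HERC2 (ENSG00000128731.18, chr15:28111040-28322179, minus strand) had 9 and 19 coding peaks. The pair with the highest lower height was at chr15:28299400-28299450 with a coding share of 0.98, at 7 tags in replicate 1 and 11 in replicate 2. A coding peak at chr15:28220450-28220500 had 7 and 5 tags, and one at chr15:28113050-28113100 had 4 and 11 tags. All 4 overlapping pairs of HERC2 were coding in both replicates. HERC2 has partial duplicate copies elsewhere in the genome, and only uniquely mapped reads were kept, so reads of shared stretches could be missing and its counts are uncertain.

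HERC1 (ENSG00000103657.14, chr15:63608618-63833948, minus strand) had 8 and 10 coding peaks, none above 8 tags. Its 2 overlapping pairs had 5 tags in both replicates, a coding peak at chr15:63638400-63638450 and a 5′ UTR peak at chr15:63833800-63833850, centred 0.12 kb from the start of the gene. Its highest peaks were both mainly coding, at chr15:63672550-63672600 with 6 tags in replicate 1 and at chr15:63749350-63749400 with 8 tags in replicate 2, and neither was overlapped in the other replicate.

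TRIP12, a HECT ligase of the ubiquitin fusion degradation pathway, is listed as ENSG00000153827.14 within chr2:229763837-229923186 on the minus strand. It had 6 coding peaks in each replicate. The same coding peak was the highest in both, at chr2:229840800-229840850 with 7 tags in replicate 1 and 10 tags in replicate 2. A further coding pair at chr2:229836900-229836950 had 5 and 6 tags.

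MYCBP2, a RING-type ligase that also passes ubiquitin along cysteines of its own and was first found as a partner of MYC and known for its role in axon growth, is listed as ENSG00000005810.19 within chr13:77044657-77327094 on the minus strand. It had 10 coding peaks in each replicate. As in UBR4, the highest peak of replicate 2 lay at the start of the gene, at chr13:77326450-77326500 with 7 tags in replicate 1 and 14 tags in replicate 2, a coding share of 0.54 and its centre 0.62 kb from the start. A coding pair at chr13:77174300-77174350 had 7 tags in both replicates, and one at chr13:77251150-77251200 had 4 and 10 tags. Peaks centred less than 1 kb from the start of the gene were present in both replicates on UBR4, HUWE1, HERC1 and MYCBP2, and in neither on HERC2, BIRC6 and TRIP12. The share of all protein-coding genes with such a peak was not counted here, so this cannot be called particular to these genes.

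BIRC6, an inhibitor of apoptosis that carries both conjugating and ligase activity, is listed as ENSG00000115760.14 within chr2:32357023-32618878 on the plus strand. It had the fewest peaks, with heights of 4 to 6 tags in replicate 1 and 5 to 6 tags in replicate 2. Its highest peaks, each with 6 tags, were a coding peak at chr2:32575150-32575200 in replicate 1 and a mainly intronic one at chr2:32543200-32543250 in replicate 2, and neither was overlapped.

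Antisense peaks, those on the opposite strand, were few on UBR4 and HUWE1. For every 100 sense peaks the 7 genes had 9.32 antisense peaks in replicate 1 and 3.64 in replicate 2, beside 39.1 and 29.9 over the whole lists. Most of the sense peaks behind these pooled values were on UBR4 and HUWE1. On TRIP12 in both replicates, and on BIRC6 in replicate 2, antisense peaks per sense peak were not fewer than over the whole lists. HUWE1 had 0 antisense peaks in both replicates, and UBR4 had 2 in replicate 1 and 0 in replicate 2. TRIP12 had 7 and 3 antisense peaks beside 11 and 10 sense peaks, MYCBP2 5 and 2 beside 18 and 16, and HERC1 4 and 3 beside 15 and 18. HERC2 had 3 and 1 beside 14 and 31, and BIRC6 1 and 1 beside 6 and 3. The highest antisense peak of these genes had 7 tags and lay on HERC1 in replicate 2, and the antisense peaks of the other 6 genes had at most 5 tags.

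Set among all protein-coding genes by the mean number of coding peaks, UBR4 ranked 2 and HUWE1 ranked 3. Only MACF1, a giant linker of actin and microtubules, had more, with 85 and 89 coding peaks against 67 and 62 on UBR4 and 42 and 66 on HUWE1. Genes below HUWE1 included RNF213 with 47 and 58, PIEZO1 with 42 and 42, and FLNA and INTS1 with 42 and 41 and with 41 and 42. The range of HUWE1 overlapped those of UBR4 and RNF213, so HUWE1 has no order with either. By replicate, UBR4 ranked 2 and 3 and HUWE1 ranked 5 and 2. In replicate 1 HUWE1 had as many coding peaks as PIEZO1 and FLNA. HERC2 ranked 142, MYCBP2 281, HERC1 336, TRIP12 651 and BIRC6 2008. A coding peak in both replicates was present on all 7 genes, beside 16.9% of all protein-coding genes, and the 7 genes together held 0.982% of all coding peaks in replicate 1 and 0.881% in replicate 2.

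Among 38 other genes of ubiquitin ligation, 33 had a sense peak in both replicates (86.8%). This held for 43.5% of all protein-coding genes and for 83.6% of those at least as long as UBR4. A coding peak in both was present on 13 of the 38, beside 16.9% of all protein-coding genes. The 38 genes differ widely in length, and these shares were not matched for it. Of 22 further HECT ligases 18 had a sense peak in both, of 6 UBR box proteins 5, and all 5 conjugating and both activating enzymes did. ITCH and UBR7 had no identifier assigned and count as without a peak. RNF213 and UBA1, 2 of the 38 genes (5.26%, beside 3.75% of all), had a sense peak of 10 tags or more in each replicate. RNF213, a giant RING-type ligase with an AAA ATPase core, had 66 and 88 sense peaks, of which 34 and 33 were overlapped, beside 67 and 88 with 42 and 42 overlapped on HUWE1. UBA1, the main ubiquitin-activating enzyme, had 12 and 27 sense peaks, with at most 11 and 15 tags. After RNF213 the highest numbers were those of HECTD4 with 26 and 38 sense peaks. The fewest among genes with an assigned identifier were those of HERC5 with 1 and 0. The median over the 38 genes was 5.0 sense peaks, beside 17.0 over the 7 giant ligase genes. It was 1.0 over all protein-coding genes and 5.5 over those at least as long as UBR4.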

How the data were processed

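Jurkat cells were assayed by IGF2BP2 iRIP-seq. According to the methods and the submitters' processing notes, read pairs of 150 bp were aligned to GRCh38 with TopHat2 and reads with several positions were discarded. ABLIRC then called the peaks, separately for each sample, from 500 simulated read placements per gene (p value threshold 0.05), and IP peaks overlapping input peaks were removed. The annotation of the regions is not given in the sources used here. The height that the authors deposited is a signal in tags, whole for 98.6% and 97.2% of the peaks of replicates 1 and 2, and not adjusted for depth, which is unknown. The deposited p-value was used only as a filter. The lists hold 145715 and 137934 peaks.

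Each peak was counted in the region with its largest share. Intervals were read as half-open, and peaks of the same strand that shared 1 bp or more were taken to overlap. Identifiers were given symbols by position and strand in RefSeq GRCh38.p14: a single protein-coding gene had to contain 80% or more of an identifier's CDS and UTR peaks, or all its peaks where it had none, with a margin of 1000 nt. This named 12665 protein-coding genes, and 4194 of the 20037 genes had no strand in the tables and were matched by position alone. The Ensembl identifiers of the 7 genes were taken from this match. Shares have 95% Wilson intervals, and coding shares were compared between libraries by two-sided Fisher's exact tests. Depth sets the number of peaks that can be called, and lists cut at different lowest heights are not equally strict.

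The genes, lists and comparisons were chosen with earlier results of these data known. The genes named were the 7 genes, the list of other ubiquitin genes at its extremes or with peaks of at least 10 tags in both replicates, and the 5 other genes nearest to UBR4 in coding peaks, of which 1 is not reported here. Peaks named were the highest of each replicate and the overlapping pair with the highest lower height, with a few further pairs and the peak nearest to a miRNA chosen after their values were seen. The ranks within genes at least as long as UBR4 and the split into UBR4 and HUWE1 against the other 5 genes were also chosen after seeing the values. Alternatives were minimum heights of 5 and 10 tags, a p value under 0.001, other definitions of coding share and of overlap, and each replicate left out. The functions for naming and overlap were tested on simulated data. Tables were handled with pandas 2.3.3 and numpy 2.4.6, tests were run with scipy 1.17.1 and figures drawn with matplotlib 3.10.9, all under Python 3.11.15. Sequences of the peaks, exon positions, the lengths of coding sequences and proteins, the inputs, and the RNA sequence and m6A sequence data were not used here.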

Additional observations from a re-analysis of the deposited data

How the results depend on the processing

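The number of sense peaks on the 7 genes (mean 255.5) was 210.5 at 5 tags or more, 48.5 at 10 tags or more and 117.5 at a p value under 0.001. It was 236 without replicate 2 and 275 without replicate 1. The coding share (mean 62.4%) was 66.6% at 5 tags, 60.5% at 10 tags, 65.6% at a p value under 0.001, 57.8% with peaks weighted by their share of coding sequence, 86.4% with any share of coding sequence and 94.1% among exonic peaks, and it ran from 61.4% to 63.3% with a replicate left out. The overlap (49.6% of replicate 1 peaks) was 63.7% at 5 tags and 59.1% at a p value under 0.001, with both lists filtered, and 42.5% for replicate 2 against replicate 1. At 10 tags, 2 of the 7 genes had a peak in both replicates. The difference in coding share between the libraries (1.83 points) was -6.59 at 5 tags. For single genes, none of which differed past the threshold, that difference changed sign at 5 tags for HERC1 (-6.94), MYCBP2 (-23.2) and TRIP12 (-40), and with any share of coding sequence for UBR4 (3.07), HERC2 (15.7), MYCBP2 (-9.03) and BIRC6 (16.7). Fewer peaks enter at a minimum height, and further causes were not tested. With adjoining peaks taken as overlapping, which was added after seeing the data, the overlap was 54.7%. No paired analysis was possible because the peak lists used here belong to 1 group, the iRIP libraries, and no groups were compared.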
